A study of Mus musculus with 10 samples.

Results

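The nuclear-encoded subunits of the oxidative phosphorylation complexes were followed across 10 mouse mammary carcinoma lines. Members were the rows of the gene table whose symbol starts with Ndufa, Ndufb, Ndufc, Ndufs or Ndufv and a digit, is Ndufab1, Sdha, Sdhb, Sdhc or Sdhd, or starts with Uqcr, with Cox and a digit from 4 to 8, or with Atp5, leaving out names that end in -ps. This gave 89 members of 55417 named genes: 39 of complex I, 4 of complex II, 8 of complex III, 21 of complex IV and 16 of complex V (the ATP synthase). The remaining member, Atp5s, matches the names but encodes no structural subunit. Ndufa4 and Ndufa4l2 were counted with complex IV, where the protein of Ndufa4 sits, and Cox7a2l, a factor that joins complexes III and IV, was counted there too. Among the 8 names left out, Ndufb1-ps was well counted, at 2623 to 6719 counts, and no other exceeded 130 counts. Ndufb4c, which the rule places with complex I, has 1 transcript, annotated as a processed pseudogene.

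The parental line is 4T1-hHER2, labelled as strain BALB/cfC3H and as mammary gland, a mouse mammary carcinoma line made to express human HER2 and luciferase stably from a lentivirus. It has 1 library. The 9 derived lines carry the same transgenes through their origin and are labelled with the strain NOD-SCID-GAMMA (NSG), immunodeficient hosts: 3 come from fat pad xenografts (primary 5, 7 and 8), 3 from circulating tumour cells (CTC 1, 3 and 6) and 3 from lung metastases (metastasis 3, 5 and 7). Per the labels, each of the 9 goes back to circulating tumour cells taken from NSG mice whose 4T1-hHER2-Luc tumours, placed orthotopically, had spread on their own, so every group went through CTCs, the primary group included. Each line is 1 culture with 1 library, and the labels do not say which lines share a mouse, so p-values measure the spread between these lines. Libraries held 79869760 to 97722716 estimated counts. Levels below are CPM, counts scaled to library size with TMM factors.

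Oxidative phosphorylation passes electrons from NADH (complex I) and succinate (complex II) through complex III and cytochrome c to oxygen at complex IV, and the proton gradient built on the way drives the ATP synthase. Most subunits are encoded in the nucleus and imported, while a small core of complexes I, III, IV and V is encoded by mitochondrial DNA, so each complex needs RNA from both genomes. Nuclear respiratory factors (NRF1, and GABP of the ETS family), YY1 and oestrogen-related receptors are known regulators of these genes. In mammary tumours, oxidative capacity is known to vary between lines and between growth sites.

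Subunit RNA was highest in the parental line, and the derived groups overlapped in its level. Over all members, summed levels were 15763 CPM in the parental library. Primary 5, 7 and 8 held 9161, 11409 and 14514 CPM, CTC 1, 3 and 6 held 11043, 9220 and 14054 CPM, and metastasis 3, 5 and 7 held 8386, 9318 and 12691 CPM. In each derived group the values spread widely, with primary 8, CTC 6 and metastasis 7 the highest of their groups, and no group lay apart from another. Group means were 11694 ± 2688 CPM in primary, 11439 ± 2441 CPM in CTC and 10132 ± 2265 CPM in metastasis lines (SD, n = 3 each). Atp5b alone made up 14.9% to 26.7% of the members' counts. Without it the sums ran from 7139 CPM in metastasis 3 to 12177 CPM in the parental library, so the order of those 2 extremes did not rest on it. Because these are bulk libraries, fewer cells with much subunit RNA and less subunit RNA per cell cannot be told apart.

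The same order of extremes held in each complex. In complex I the summed level was 3367 CPM in the parental library and 1888 CPM (metastasis 3) to 3181 CPM (primary 8) in derived lines. Complex II held 774 CPM in the parental library against 472 CPM (metastasis 3) to 715 CPM (CTC 6). For complex III the values were 1420 CPM against 733 CPM (metastasis 3) to 1340 CPM (primary 8). In complex IV they were 2597 CPM against 1470 CPM (metastasis 3) to 2381 CPM (primary 8), and in complex V 7603 CPM against 3816 CPM (metastasis 3) to 6934 CPM (primary 8). None of the 9 derived lines exceeded the parental sum in any complex, and metastasis 3 was lowest in each. The parental line has no replicate, so its distance from the derived lines cannot be set against a spread of its own.

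**Figure D1:**
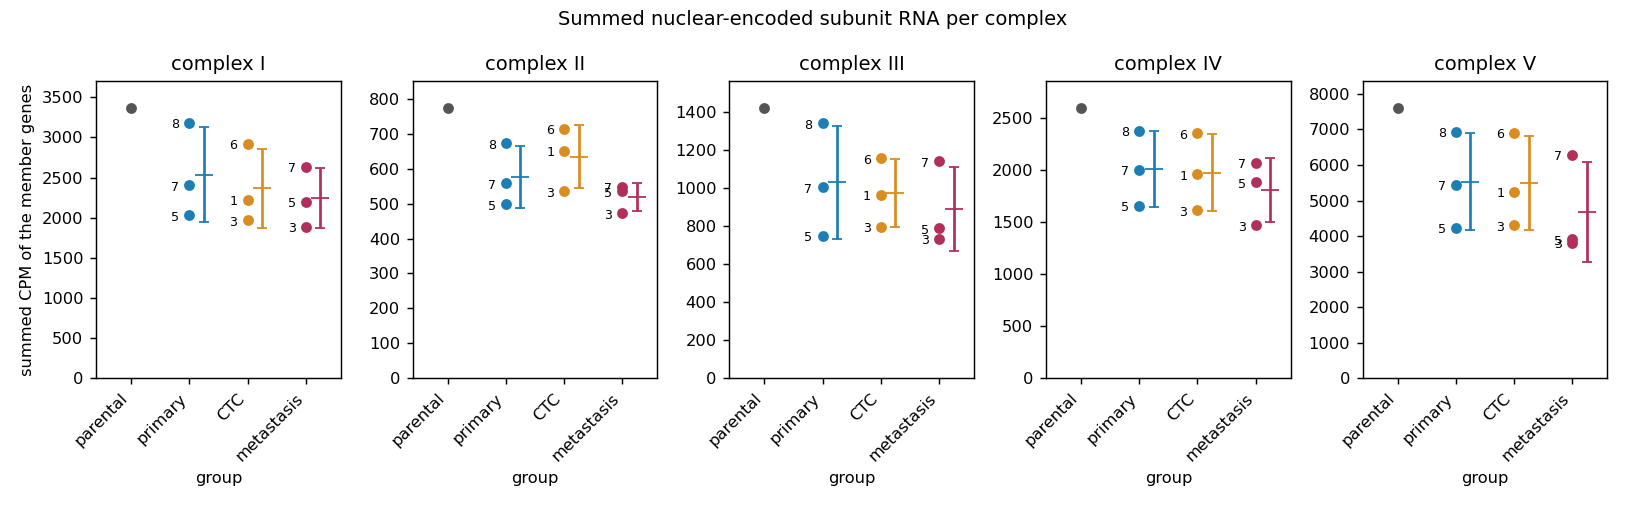
Summed CPM of the member genes (y axis, from 0) by group (x axis) for complexes I to V; points are libraries, labelled with their line number, and bars are the mean ± SD of 3 lines. The parental point lies above every derived line in each panel, and the 3 derived groups overlap.

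Of the 89 members, 81 passed the filter on low counts. The 8 removed were Cox4i2, Cox6b2, Cox6c2, Cox7b2, Cox8b, Cox8c, Ndufa11b and Ndufs6b, with highest counts of 10, 0, 9, 0, 0, 0, 6 and 2 in any library. Several of these encode isoforms known from particular tissues: Cox4i2 from lung and hypoxic cells, Cox6b2, Cox7b2 and Cox8c from testis and Cox8b from heart and muscle. Their widespread partners carried the level: Cox4i1, the largest nuclear-encoded subunit of complex IV, ranged from 325 to 517 CPM, Cox6b1 from 64.2 to 139 CPM, Cox7b from 49.6 to 135 CPM and Cox8a from 148 to 533 CPM. Of the 2 muscle isoforms that passed the filter, Cox7a1 reached 0.526 CPM against 55.7 to 151 CPM for Cox7a2. Cox6a2 stood at 3.46 CPM in the parental library, at 1.37, 0.395 and 4.52 CPM in primary 5, 7 and 8, at 0, 0 and 7.84 CPM in CTC 1, 3 and 6, and at 0.314, 1.11 and 3.00 CPM in metastasis 3, 5 and 7, while its partner Cox6a1 stood at 134 to 255 CPM. The 5 skeletal muscle markers (Ckm, Acta1, Tnnt3, Myh4, Mylpf) summed to at most 2.59 CPM (primary 7), and to 0.122 CPM in CTC 6, the library with the most Cox6a2. Ndufa4l2, a paralogue of Ndufa4 known from hypoxic cells, stayed at or below 0.213 CPM, and Ndufa4 itself lay between 85.4 and 159 CPM. Ring subunit c of the ATP synthase comes from 3 genes that encode the same mature protein: Atp5g1 ranged from 56.8 to 183 CPM, Atp5g2 from 126 to 250 CPM and Atp5g3 from 169 to 289 CPM, and Atp5g1 varied most of the 3 (SD of log2 CPM over the derived lines 0.60, against 0.34 and 0.23).

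Levels of different genes were set side by side per kilobase of exon, as the mean over the 10 libraries, for the 81 members that passed the filter. The catalytic β subunit of the ATP synthase led: Atp5b stood at 568 CPM per kilobase, followed in complex V by the α subunit gene Atp5a1 (285) and the γ subunit gene Atp5c1 (194), and the least abundant there were Atp5j (24.1), Atp5g1 (19.9) and Atp5l (18.7). Complex IV was led by Cox8a (473 CPM per kilobase), Cox4i1 (266) and Cox6a1 (249), and the muscle and hypoxia isoforms Cox6a2 (3.23), Cox7a1 (0.379) and Ndufa4l2 (0.0805) came last. Complex III ranged from Uqcr10 (133), Uqcrfs1 (103), which encodes the Rieske iron-sulphur protein, and Uqcrq (87.2) to the core protein genes Uqcrc1 (67.8) and Uqcrc2 (58.3) and Uqcrb (56.4). In complex II the levels per kilobase were 136 for Sdhd, 55.7 for Sdha, 47.4 for Sdhb and 28.5 for Sdhc. Complex I was led by Ndufb9 (308 CPM per kilobase), Ndufa2 (91.0) and Ndufb6 (85.7), and the least were Ndufs1 (9.23), Ndufb4c (7.44) and Ndufb2 (4.41). The 3 most abundant members per kilobase over all complexes were Atp5b, Cox8a and Ndufb9. Per kilobase of the transcripts counted, 7 of the 10 highest members were the same, led by Atp5b at 1266 mean CPM per kilobase. Within complexes some ranks changed on that scale. Atp5l stood at 180 and was no longer among the 3 least abundant of complex V. Uqcrc1 (170) was among the 3 most abundant of complex III and Uqcrfs1 (103) among the 3 least. In complex I, Ndufa7 and Ndufa12 replaced Ndufa2 and Ndufb6 behind Ndufb9, and Ndufa13 replaced Ndufs1 among the least. Both scales rest on annotated lengths, and 30 members share exon bases with another gene; no source used here says whether counting used strand, so reads in such stretches are uncertain. Examples are Atp5f1, with 337 bases in common with Wdr77 on the opposite strand, Ndufb5, with 616 in common with Mrpl47, and Cox6c, with 250 in common with Vps13b. Many subunit genes also have processed pseudogenes, to which near-identical reads can be split.

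The lowest and highest CPM over the 10 libraries were read for a selection of members. Among core subunits of complex I, Ndufv1, which binds NADH, ranged from 75.5 to 167 CPM, Ndufv2 from 66.8 (parental) to 118 (primary 8), Ndufs7 from 46.4 to 82.1 and Ndufs8 from 37.6 to 73.9, and Ndufs1, the largest, from 40.7 (CTC 3) to 143 (parental). Ndufs7 and Ndufs8 were lowest in metastasis 3, as was Ndufv1, whereas Ndufv2 was lowest in the parental library. Among accessory subunits, Ndufa12 ranged from 44.5 to 138 CPM, Ndufab1, the mitochondrial acyl carrier protein, from 56.0 to 152, Ndufa7 from 51.1 to 132 and Ndufs5 from 34.5 to 88.0. Ndufb4c, annotated as a processed pseudogene, reached 4.29 CPM against 22.1 to 52.8 CPM for Ndufb4, and reads near-identical between the pair may be split. In complex III, Uqcrfs1 ranged from 98.3 (metastasis 5) to 215 CPM (parental) and Uqcrc2 from 103 (CTC 3) to 196 CPM (primary 8). In complex IV, Cox5b ranged from 87.0 (metastasis 3) to 184 CPM (primary 8) and Cox7c from 77.3 (metastasis 7) to 146 CPM (primary 8). In the ATP synthase, the α subunit gene Atp5a1 ranged from 686 (metastasis 5) to 1200 CPM (parental), Atp5d, of the δ subunit, from 176 (primary 5) to 327 (parental), Atp5o, of the stalk, from 104 (metastasis 3) to 212 (primary 8), and Atp5f1, of the peripheral stalk, from 219 (primary 5) to 445 (primary 8). Over the 81 tested members the parental library was the highest of the 10 in 34 and primary 8 in 28, and metastasis 3 was the lowest in 25 and primary 5 in 21.

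Within the derived lines the median spread of the members was below that of other genes. The median SD of log2 CPM over the 9 lines was 0.34 for the 81 tested members, against 0.66 for all 19935 tested genes and 0.45 for the 9315 with a mean of at least 10 CPM. Beyond that threshold the other genes were not matched to the members in level. By complex it was 0.35 in I, 0.35 in II, 0.39 in III, 0.40 in IV and 0.30 in V. Among the steadiest were Ndufs3, a core subunit in the peripheral arm of complex I (SD 0.14), Sdha, the flavoprotein of complex II (SD 0.18), and Ndufa8, an accessory subunit of complex I (SD 0.21). Ndufs3 stood at 55.8 CPM in the parental library, at 61.3, 82.0 and 74.4 CPM in primary 5, 7 and 8, at 75.1, 69.6 and 60.2 CPM in CTC 1, 3 and 6, and at 70.7, 71.5 and 70.9 CPM in metastasis 3, 5 and 7. Its parental value was the lowest of the 10, the opposite of the members' sum. Sdha stood at 270 CPM in the parental library, at 217, 199 and 283 CPM in primary, at 240, 211 and 258 CPM in CTC and at 207, 221 and 191 CPM in metastasis lines, in the same order of line numbers. For Ndufa8 the lowest, median and highest of the 10 values were 53.3, 62.2 and 78.9 CPM. Ndufa8 was lowest in primary 8, where most members were high.

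A minority of members, from complexes I, III, IV and V, shared an order of libraries. In 23 of the 81 tested members the 5 lowest libraries were primary 5, CTC 1, CTC 3, metastasis 3 and metastasis 5, which belong to all 3 derived groups. These 5 were the lowest in 7.36% of all tested genes and in 11.3% of those with a mean of at least 10 CPM, against 28.4% of the members. The next most frequent set of 5 was seen in 10 members. The 23 comprised 12 of 37 tested members in complex I (among them Ndufa1, Ndufa5, Ndufa9, Ndufa10, Ndufa12, Ndufab1, Ndufb3, Ndufb6, Ndufs1 and Ndufs5), 3 of 8 in complex III (Uqcr10, Uqcrc1, Uqcrq), 5 of 15 in complex IV (Cox5a, Cox5b, Cox6a1, Cox7a2, Cox8a) and 3 of 16 in complex V (Atp5b, Atp5f1, Atp5g1), with 0 of 4 in complex II. The set was read from these same values, so its count is a description and carries no test.

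Values of 4 genes in every library show how far this order reached. Atp5b stood at 3585 CPM in the parental library, at 1840, 2419 and 3443 CPM in primary 5, 7 and 8, at 1930, 1454 and 3347 CPM in CTC 1, 3 and 6, and at 1247, 1402 and 3388 CPM in metastasis 3, 5 and 7. Each group thus spanned a wide part of the gene's range, with primary 8, CTC 6 and metastasis 7 within a narrow band near the parental value. Uqcrq, a small subunit of complex III that sits by cytochrome b, varied most among members with at least 10 CPM in every library (SD of log2 CPM 1.17). It stood at 376 CPM in the parental library, at 76.1, 130 and 280 CPM in primary, at 53.2, 38.4 and 272 CPM in CTC and at 40.2, 75.3 and 255 CPM in metastasis lines, in the same order. Cox5a, which binds the inner side of complex IV, stood at 285 CPM in the parental library, at 120, 174 and 201 CPM in primary, at 118, 79.0 and 229 CPM in CTC and at 84.9, 106 and 194 CPM in metastasis lines. Its highest-to-lowest ratio was 3.61, against 9.78 for Uqcrq and 2.88 for Atp5b. Ndufa9, an accessory subunit at the base of the peripheral arm of complex I, stood at 120 CPM in the parental library, at 63.4, 67.7 and 138 CPM in primary, at 65.1, 52.9 and 102 CPM in CTC and at 51.1, 53.0 and 92.3 CPM in metastasis lines. In all 4 genes the lowest library was CTC 3 or metastasis 3. In GENCODE M21 (GRCm38), Atp5b lies on chromosome 10 at 128083273 to 128090391, Uqcrq on chromosome 11 at 53427922 to 53430831, Cox5a on chromosome 9 at 57521274 to 57532426 and Ndufa9 on chromosome 6 at 126821721 to 126849136.

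Most members did not have primary 5, CTC 1, CTC 3, metastasis 3 and metastasis 5 as their 5 lowest libraries. The same 5 libraries were the highest, rather than the lowest, in 1 member, against 9.41% of all tested genes. That member was Cox7a2l, the supercomplex factor, at 146 CPM in the parental library, at 219, 179 and 148 CPM in primary 5, 7 and 8, at 278, 219 and 213 CPM in CTC 1, 3 and 6, and at 249, 301 and 215 CPM in metastasis 3, 5 and 7. The parental library held the least of it, and all 9 derived lines stood above. Uqcrh, the hinge protein of complex III beside cytochrome c1, stood at 104 CPM in the parental library, at 65.4, 74.9 and 84.4 CPM in primary, at 149, 131 and 67.5 CPM in CTC and at 126, 114 and 75.4 CPM in metastasis lines, in the same order. It was high in CTC 1, CTC 3, metastasis 3 and metastasis 5, where Uqcrq was low, and low in CTC 6 and metastasis 7, where Uqcrq was high. In primary 5 both were low.

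**Figure D2:**
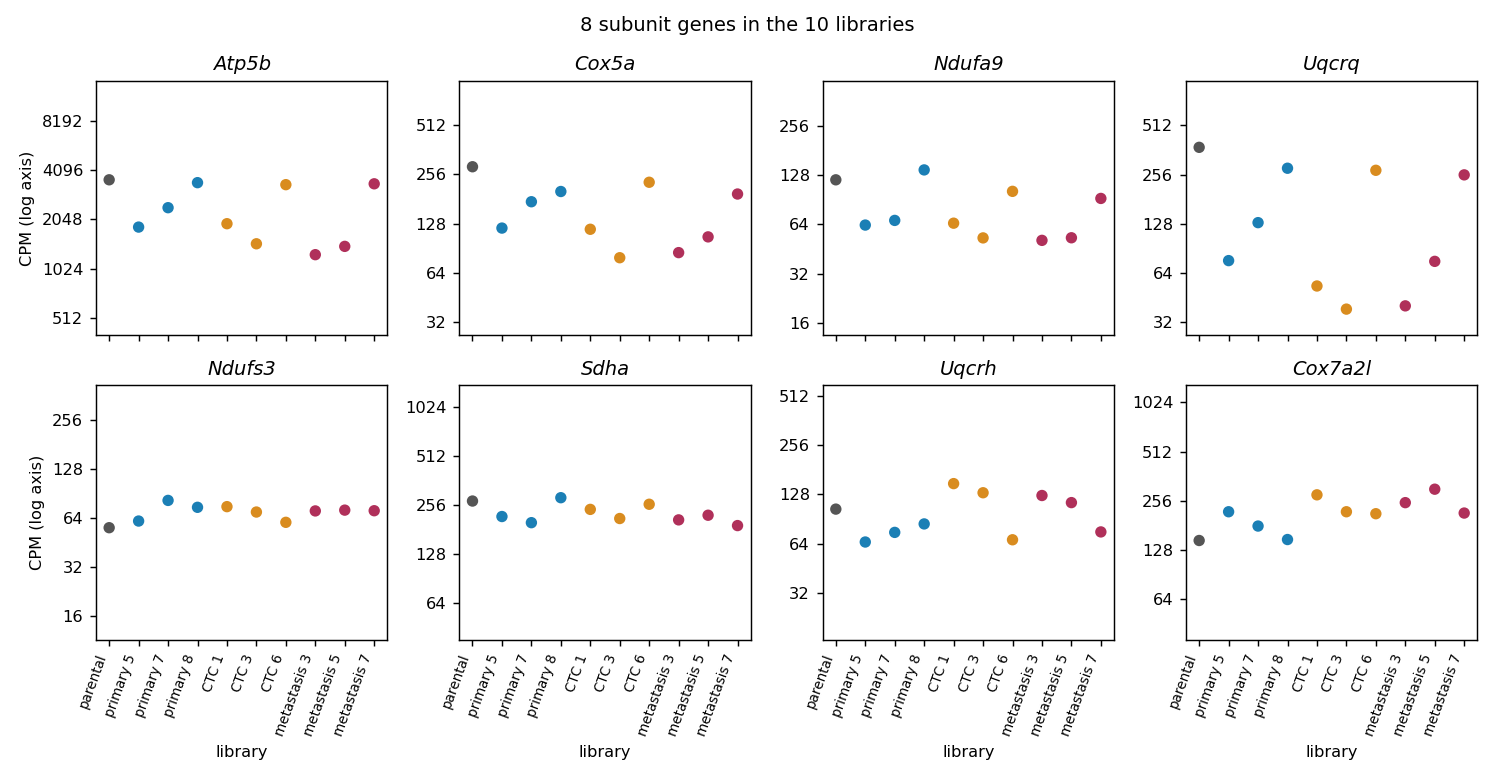
CPM (y axis, log scale of equal span in every panel) of 8 subunit genes in the 10 libraries (x axis), coloured by group. Atp5b, Cox5a, Ndufa9 and Uqcrq are low in primary 5, CTC 1, CTC 3, metastasis 3 and metastasis 5, Ndufs3 and Sdha are nearly level, and Uqcrh and Cox7a2l follow other orders.

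Other values moved with this order of libraries. The 4 fibroblast markers (Pdgfra, Col1a1, Col3a1, Dcn) summed to 61.8 CPM in primary 5, 73.9 in CTC 1, 142 in CTC 3, 130 in metastasis 3 and 284 in metastasis 5, and to 4.88 to 13.6 CPM in the other 5 libraries. Nearly all of this was Pdgfra, at 58.1 to 269 CPM in those 5 and 4.05 to 11.3 CPM in the others, and Dcn was also higher in those 5, at 0.852 to 12.4 CPM against 0 to 0.610 CPM in the others. Col1a1 stayed at or below 2.32 CPM and Col3a1 at or below 0.325 CPM, with no such order. Cycs, the electron carrier cytochrome c between complexes III and IV, stood at 330 CPM in the parental library, at 77.0, 152 and 294 CPM in primary, at 67.6, 57.4 and 268 CPM in CTC and at 48.9, 50.5 and 132 CPM in metastasis lines, lowest in the same 5 libraries. Markers of blood cells, endothelium, lung epithelium and adipocytes reached 7.40, 1.31, 2.0 and 2.90 CPM in sum, and the 5 epithelial markers of the tumour line (Epcam, Krt7, Krt8, Krt18, Cdh1) summed to 1152 to 3231 CPM. Of these, Cdh1 was lowest in the same 5 libraries, at 77.3 to 107 CPM against 150 to 627 CPM in the others. Krt18 went the other way and was highest in them, at 1157 to 1462 CPM against 303 to 1077 CPM in the others. Epcam had this order in part. It was lowest in CTC 1, CTC 3, metastasis 3 and metastasis 5, at 15.7 to 30.0 CPM, but stood at 56.3 CPM in primary 5. Krt7 and Krt8 had no such order. The part of these values in the members' order was not tested.

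Promoter sequences were looked at because some members shared an order of libraries. RefSeq promoters (GRCm38.p6, 250 bases before to 50 after the start) matched 67 of the 89 members, and each was searched on both strands for GCATGCGC (NRF1), CCGGAAGT (the ETS motif bound by GABP), AAGATGGCG (YY1) and TCAAGGTCA (oestrogen-related receptors). GCATGCGC overlaps its own reverse complement, so a 10-base run can match on both strands. The NRF1 letters were in 10 of the 67 members (14.9%, against 3.05% of 27025 genes with a promoter), the ETS letters in 5 (7.46% against 4.31%), the YY1 letters in 7 (10.4% against 1.64%) and the receptor letters in 2 (2.99% against 0.466%). At least 1 of the 4 was in 23 of the 67 (34.3%, against 8.93% of all genes). Among the 19 matched members with the shared order of libraries, the 4 motifs were in 2, 1, 1 and 0. Only promoters with a match are printed, and members with the order but no match, such as Atp5b and Cox5a, are not shown. Below are 4 members with that order (Ndufa9, Cox6a1, Cox8a, Uqcrc1) and 3 without it (Sdhb, Uqcrh, Ndufs3), each 5′ to 3′ on the gene's strand, in lower case with matches in capitals.
Ndufa9, minus strand, chr6:126849095-126849394: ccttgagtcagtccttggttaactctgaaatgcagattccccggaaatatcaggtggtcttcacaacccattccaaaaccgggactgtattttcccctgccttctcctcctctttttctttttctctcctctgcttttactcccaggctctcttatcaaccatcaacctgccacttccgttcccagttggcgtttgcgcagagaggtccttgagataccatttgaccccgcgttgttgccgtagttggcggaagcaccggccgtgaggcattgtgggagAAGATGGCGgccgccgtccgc
Cox6a1, minus strand, chr5:115348909-115349208: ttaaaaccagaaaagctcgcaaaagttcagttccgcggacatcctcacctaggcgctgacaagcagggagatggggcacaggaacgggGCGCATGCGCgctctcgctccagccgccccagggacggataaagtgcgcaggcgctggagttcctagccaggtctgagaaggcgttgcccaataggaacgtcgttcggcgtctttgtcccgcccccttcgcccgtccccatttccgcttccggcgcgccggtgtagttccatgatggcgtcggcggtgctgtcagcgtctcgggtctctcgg
Cox8a, minus strand, chr19:7217567-7217866: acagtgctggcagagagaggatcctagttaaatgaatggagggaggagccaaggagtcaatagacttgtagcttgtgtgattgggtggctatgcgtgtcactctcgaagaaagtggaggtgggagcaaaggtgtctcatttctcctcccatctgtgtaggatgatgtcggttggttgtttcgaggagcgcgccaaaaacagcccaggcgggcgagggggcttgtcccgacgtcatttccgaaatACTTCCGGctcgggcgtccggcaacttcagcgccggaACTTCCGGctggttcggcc
Uqcrc1, plus strand, chr9:108936398-108936697: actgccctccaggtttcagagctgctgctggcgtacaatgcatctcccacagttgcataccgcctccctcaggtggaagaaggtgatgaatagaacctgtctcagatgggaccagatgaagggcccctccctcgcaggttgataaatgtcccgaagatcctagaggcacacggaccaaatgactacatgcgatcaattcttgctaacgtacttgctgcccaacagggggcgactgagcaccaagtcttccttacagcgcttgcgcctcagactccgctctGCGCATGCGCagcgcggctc
Sdhb, plus strand, chr4:140961021-140961320: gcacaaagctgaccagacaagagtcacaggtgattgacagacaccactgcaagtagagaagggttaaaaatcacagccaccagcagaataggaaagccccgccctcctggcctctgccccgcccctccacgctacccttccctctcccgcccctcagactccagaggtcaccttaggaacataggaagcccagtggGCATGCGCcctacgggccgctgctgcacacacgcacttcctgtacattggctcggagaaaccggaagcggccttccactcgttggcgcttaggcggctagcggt
Uqcrh, minus strand, chr4:116075021-116075320: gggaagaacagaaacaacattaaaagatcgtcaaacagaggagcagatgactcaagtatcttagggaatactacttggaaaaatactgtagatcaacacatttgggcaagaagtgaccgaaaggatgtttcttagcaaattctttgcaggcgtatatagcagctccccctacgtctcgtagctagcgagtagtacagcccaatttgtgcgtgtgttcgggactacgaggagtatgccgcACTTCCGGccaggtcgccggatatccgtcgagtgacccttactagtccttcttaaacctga
Ndufs3, minus strand, chr2:90904672-90904971: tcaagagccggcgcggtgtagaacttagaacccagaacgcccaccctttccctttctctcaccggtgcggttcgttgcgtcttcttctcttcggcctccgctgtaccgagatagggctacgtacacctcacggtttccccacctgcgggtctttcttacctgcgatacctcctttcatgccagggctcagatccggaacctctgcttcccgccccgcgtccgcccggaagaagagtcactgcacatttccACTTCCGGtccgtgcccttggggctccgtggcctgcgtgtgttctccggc
The capitals mark YY1 letters in Ndufa9, beginning 29 bases after the start, overlapping NRF1 letters in Cox6a1 and in Uqcrc1, and single NRF1 letters in Sdhb. In Cox8a (a pair of matches), Uqcrh and Ndufs3 they mark ETS letters, all on the opposite strand. Of the 7 members with YY1 letters, 6 held them between 22 and 35 bases after the start, and Atp5j 88 bases before the start, in the promoter of another of its starts. A match is a run of letters and no measured binding, and the letters were found in members with and without the shared order.

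Against the parental library, most members had lower levels in the derived lines. The fitted log2 change, mean of the 3 derived groups against parental, was below 0 in 65 of 81 members and above 0 in 16, with a median of -0.45, beside a median of 0.10 over all tested genes. By complex the median log2 change was -0.51 in I, -0.26 in II, -0.50 in III, -0.42 in IV and -0.43 in V. In complex I the 7 core subunits had a median of -0.47 and the 30 tested accessory subunits one of -0.56. The parental library lay above all 9 derived lines in 34 members, a placing seen in 15.4% of all tested genes, and below all 9 in 5 members (Atp5s, Cox7a1, Cox7a2l, Ndufs3 and Ndufv2), a placing seen in 14.1%. Of the 34, 17 belonged to complex I, 1 to II, 4 to III, 6 to IV and 6 to V.

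No member passed in this comparison. By edgeR (quasi-likelihood test, Benjamini-Hochberg adjusted) at 0.05, 0 of 81 members were called, beside 0.0201% of all genes. In the same test 5 members had an unadjusted p under 0.05, beside 10.3% of all genes. DESeq2 and limma-voom called 0 members, beside 671 and 23 of all genes. Ndufb8, an accessory subunit in the membrane arm of complex I, had the smallest p. It stood at 193 CPM in the parental library, at 67.7, 129 and 84.0 CPM in primary 5, 7 and 8, at 80.8, 67.3 and 30.7 CPM in CTC 1, 3 and 6, and at 52.3, 45.1 and 78.8 CPM in metastasis 3, 5 and 7, so all 9 derived lines were below the parental value. Its fitted log2 change was -1.48 (SE 0.46, adjusted p = 0.452, the Benjamini-Hochberg adjusted quasi-likelihood test of edgeR). Both other groups of lines overlapped the primary lines for Ndufb8. Atp5c1, the γ shaft subunit of the ATP synthase, stood at 560 CPM in the parental library and at 291 to 457 CPM in derived lines (log2 change -0.69, SE 0.24, adjusted p = 0.472 by the same edgeR test). Sdhd, a membrane anchor of complex II, stood at 293 CPM in the parental library, at 115, 162 and 161 CPM in primary, at 173, 144 and 202 CPM in CTC and at 117, 113 and 196 CPM in metastasis lines (log2 change -0.94, SE 0.34, adjusted p = 0.472 by the same edgeR test). Cox8a and Cox7a2, both of complex IV, had log2 changes of -1.01 and -0.98 and were the other members with an unadjusted p under 0.05. Among members with higher levels in derived lines, those with the smallest p were Atp5s (log2 change 1.40, SE 0.71), Cox7a2l (0.61, SE 0.33) and Cox6c (1.52, SE 0.93), with adjusted p = 0.506, 0.516 and 0.532 by the same edgeR test. Atp5s, also known as a coupling factor and thinly counted, stood at 1.93 CPM in the parental library, at 4.66, 2.92 and 5.02 CPM in primary, at 7.21, 6.29 and 4.01 CPM in CTC and at 8.34, 5.36 and 2.58 CPM in metastasis lines.

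Between metastasis and primary lines, fitted changes were mostly below 0 and no member passed. The fitted log2 change was below 0 in 63 of 81 members and above 0 in 18, with a median of -0.21, beside 0.01 over all tested genes. The median was -0.24 in complex I, -0.11 in II, -0.22 in III, -0.29 in IV and -0.21 in V. It depended on 1 library: without primary 8 it was -0.01, and with the line number as a fixed block it was 0.07. By edgeR's quasi-likelihood fit after Benjamini-Hochberg adjustment, 0 members were called, beside 0% of all genes, and 1 had an unadjusted p under 0.05, beside 8.29% of all genes. DESeq2 and limma-voom called 0 members, beside 175 and 0 of all genes. The groups did not overlap in 3 members with higher metastasis values (Atp5l, Ndufv3, Sdhc), beside 6.38% of all genes, and in 4 with lower ones (Atp5c1, Atp5o, Ndufv1, Sdhb), beside 7.27%.

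Sdhb, the iron-sulphur subunit of complex II (chromosome 4, 140961203 to 140979193), was the member with the unadjusted p under 0.05. It stood at 104 CPM in the parental library, at 105, 127 and 161 CPM in primary 5, 7 and 8, at 84.9, 117 and 126 CPM in CTC 1, 3 and 6, and at 76.8, 86.2 and 75.0 CPM in metastasis 3, 5 and 7. All 3 metastasis lines lay below all 3 primary lines, while CTC lines overlapped the primary lines. The log2 change was -0.72 (SE 0.25, adjusted p = 0.594) by edgeR (quasi-likelihood test, Benjamini-Hochberg adjusted). Its partners differed: Sdha is given above, and Sdhc, a membrane anchor, stood at 106 CPM in the parental library, at 61.6, 70.2 and 67.9 CPM in primary, at 155, 63.6 and 130 CPM in CTC and at 71.0, 116 and 86.4 CPM in metastasis lines. All 3 metastasis values of Sdhc lay above the primary values, while CTC 3 lay within the primary range. Complex II has no subunit from mitochondrial DNA and is the one of the 5 that also works in the tricarboxylic acid cycle.

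The other members with the smallest p in this comparison were spread over 4 complexes. Ndufa10, an accessory subunit of the membrane arm of complex I, stood at 109, 147 and 198 CPM in primary 5, 7 and 8 and at 89.5, 94.4 and 113 CPM in metastasis 3, 5 and 7 (log2 change -0.61, SE 0.28, adjusted p = 0.594, same edgeR test). Primary 5 and metastasis 7 overlapped. Uqcrc1, a core protein of complex III, stood at 238, 373 and 394 CPM in primary and at 206, 220 and 287 CPM in metastasis lines (log2 change -0.49, SE 0.25, adjusted p = 0.595 by the same edgeR test). Higher values in metastasis lines were seen for Ndufv3, an accessory subunit beside the NADH site, at 34.3, 36.4 and 33.7 CPM in primary and 38.3, 57.5 and 49.3 CPM in metastasis lines (log2 change 0.48, SE 0.24, adjusted p = 0.595), and for Cox7a2l (log2 change 0.49, SE 0.24, adjusted p = 0.594), both by the same edgeR test. Atp5l, a membrane subunit of the ATP synthase, had the smallest p of those with higher values and is described with the unevenly counted members.

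Between CTC and primary lines the members were divided. The fitted log2 change was above 0 in 35 and below 0 in 46 of 81 members, with a median of -0.05, beside -0.01 over all tested genes. Without primary 8 the median was 0.17, without CTC 3 it was 0.07, and with the line number as a fixed block 0.24, so its sign was not fixed by these lines. By the Benjamini-Hochberg adjusted quasi-likelihood test of edgeR, 0 members were called, beside 0% of all genes, and 3 had an unadjusted p under 0.05 (Atp5l, Ndufa13, Sdhc), beside 4.06% of all genes; limma-voom called 0 and DESeq2 called 1, Ndufa13, beside 66 of all genes. The groups did not overlap in 1 member with higher CTC values (Atp5l), beside 3.13% of all genes, and in 0 with lower ones, beside 4.02%. Sdhc had a log2 change of 0.80 (SE 0.34, adjusted p = 0.994) and Uqcrh one of 0.63 (SE 0.33, adjusted p = 0.994), both by the same edgeR test. Ndufb8 and Ndufa10 had log2 changes of -0.65 (SE 0.41) and -0.44 (SE 0.28), each with adjusted p = 0.994 by the same edgeR test.

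Between metastasis and CTC lines the fitted log2 change was below 0 in 66 of 81 members, and in all 16 tested subunits of complex V. The median was -0.16, beside 0.00 over all tested genes, and -0.02 without CTC 6. It was -0.11 in complex I, -0.32 in II, -0.14 in III, -0.18 in IV and -0.21 in V. By edgeR's quasi-likelihood fit after Benjamini-Hochberg adjustment, 0 members were called, beside 0.00502% of all genes, and 1 had an unadjusted p under 0.05 (Ndufa13), beside 3.29% of all genes. The limma-voom fit called 0 members, beside 1 of all genes, and DESeq2 called 1, Ndufa13, beside 27 of all genes. No member had metastasis values wholly above the CTC values, beside 4.43% of all genes, and 4 had them wholly below (Atp5c1, Cox7b, Cox7c, Uqcr11), beside 3.85%. Atp5c1 stood at 419, 333 and 457 CPM in CTC 1, 3 and 6 and at 291, 299 and 309 CPM in metastasis 3, 5 and 7 (log2 change -0.43, SE 0.20, adjusted p = 1.00 by the same edgeR test). Ndufb11, an accessory subunit of the membrane arm of complex I, stood at 65.6 CPM in the parental library, at 52.7, 44.8 and 82.4 CPM in primary, at 70.1, 75.5 and 82.0 CPM in CTC and at 70.9, 26.5 and 29.8 CPM in metastasis lines (log2 change -0.84, SE 0.41, adjusted p = 1.00 by the same edgeR test). Metastasis 5 and 7 were the lowest of the 10 libraries for Ndufb11, and metastasis 3 lay within the CTC range. Ndufb10, another accessory subunit of that arm, stood at 40.0 CPM in the parental library, at 33.2, 33.1 and 46.3 CPM in primary, at 37.4, 31.5 and 30.4 CPM in CTC and at 32.2, 49.3 and 33.2 CPM in metastasis lines. Its log2 change for metastasis against CTC was 0.21 (SE 0.27), and -0.02 without metastasis 5, its highest library. Ndufv3 and Sdhb had log2 changes of 0.44 (SE 0.24) and -0.46 (SE 0.25) for metastasis against CTC, each with adjusted p = 1.00 by the same edgeR test.

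**Figure D3:**
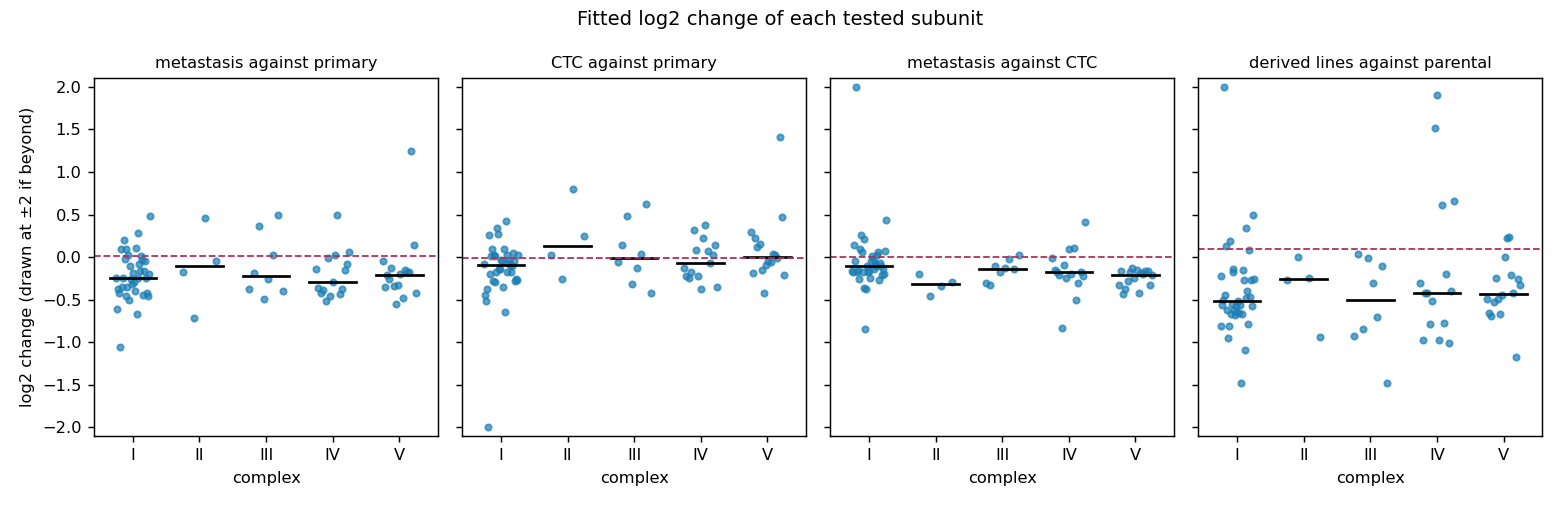
Fitted log2 change (y axis) of each tested subunit by complex (x axis) in 4 comparisons; black bars are medians, points beyond ±2 are drawn at ±2, and the dashed line is the median of all tested genes. Most points lie below 0 against parental, and the medians of metastasis against primary and against CTC lie below the dashed line by less than the spread of the points.

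Over the 3 derived groups together, 0 members were called by edgeR (quasi-likelihood test, Benjamini-Hochberg adjusted), beside 0% of all genes. In the same test 0 members had an unadjusted p under 0.05, beside 5.20% of all genes. DESeq2 and limma-voom called 0 members, beside 137 and 0 of all genes. Sdhb had the smallest p (adjusted p = 0.907 by the same edgeR test). At the level of transcripts, 335 member transcripts were tested with 0 called, beside 0% of 78270 transcripts, and 13 had an unadjusted p under 0.05, beside 4.74%. A single transcript led in every library where the gene had counts for 71 of the 81 members. These include members with only 1 transcript, such as Ndufa1 and Sdhd, where no other could lead. Among the other 10 (Atp5d, Atp5h, Atp5s, Cox6c, Cox7a1, Ndufb2, Ndufs4, Ndufs6, Ndufv3, Uqcrb), Ndufs4, an accessory subunit of complex I, took 31.5% of its counts from its first transcript in the parental library and 37.1% to 80.7% in derived lines, and Ndufs6 took 33.0% against 39.4% to 91.9%.

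**Figure D4:**
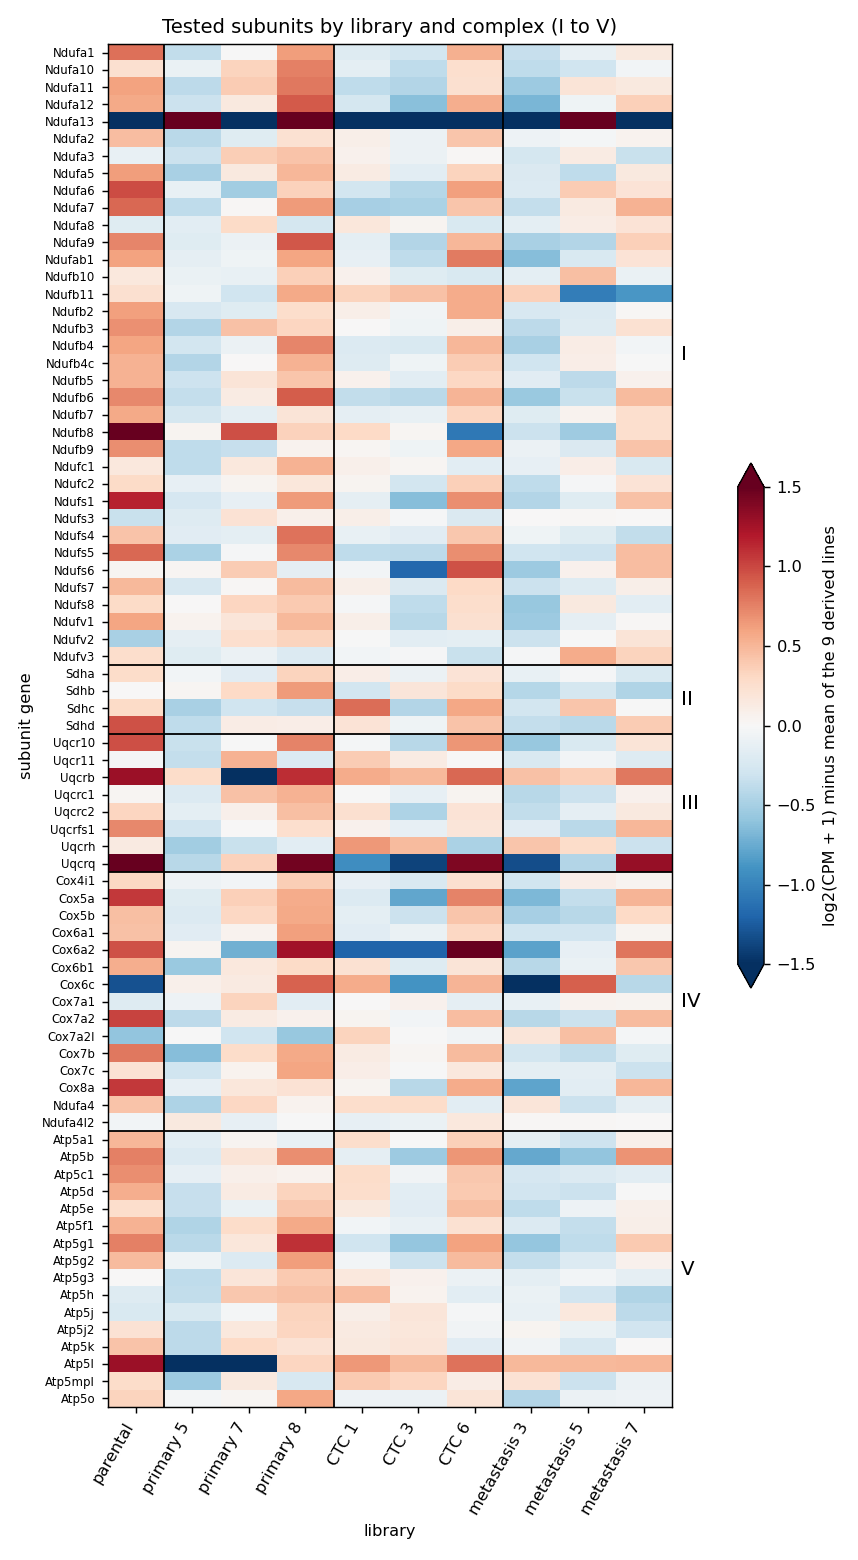
Tested subunits, all but 1 (rows, grouped by complex I to V), in the 10 libraries (columns); colour is log2(CPM + 1) minus the mean of the 9 derived lines, drawn at the end of the scale beyond ±1.5. The parental, primary 8 and CTC 6 columns are mostly red, and primary 5, CTC 3 and metastasis 3 mostly blue; Ndufa13, Uqcrb, Atp5l and Cox6c stand apart.

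Some subunits were counted unevenly between libraries. Ndufa13, an accessory subunit of complex I also known as GRIM-19 (chromosome 8, 69894180 to 69902558), was listed at 0 in 7 of 10 libraries and at 4072, 6352 and 5320 counts in primary 5, primary 8 and metastasis 5. Because Ndufa13 holds 1 transcript in the table and the 3 CTC libraries were all at 0, no fold is given; p was 0.0356 against primary and 0.0448 against metastasis, with adjusted p = 0.994 and 1.00 by the same edgeR test. Uqcrb, a subunit of complex III near the quinone site, had 11 counts in primary 7 and 2870 to 5726 in the other libraries, and its main transcript was listed at 0 in primary 7. Atp5l stood at 224 CPM in the parental library, at 24.7, 24.0 and 114 CPM in primary 5, 7 and 8, at 143, 127 and 161 CPM in CTC and at 128, 128 and 129 CPM in metastasis lines. Its log2 change was 1.25 (SE 0.55, adjusted p = 0.594) for metastasis and 1.41 (SE 0.56, adjusted p = 0.994) for CTC against primary, both by the same edgeR test. Primary 8 lay below every CTC and metastasis line, but by far less than primary 5 and 7. Cox6c, a small subunit of complex IV, stood at 42.0 CPM in the parental library, at 111, 116 and 195 CPM in primary, at 156, 56.4 and 150 CPM in CTC and at 30.7, 197 and 78.8 CPM in metastasis lines, with its first transcript taking 27.4% of counts in metastasis 3 and 94.9% in CTC 6. In each library 19.7% to 22.8% of all counts lie in assembled entries tied to no gene, which carry no position in the files, and whether reads of these subunits lie there was not tested. Leaving these 4 genes out moved no median of the members.

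RNA of the 13 subunits encoded by mitochondrial DNA took another course. Their sum was 17599 CPM in the parental library, 14692, 16190 and 11629 CPM in primary 5, 7 and 8, 21855, 18782 and 10624 CPM in CTC 1, 3 and 6, and 21364, 29645 and 23034 CPM in metastasis 3, 5 and 7. All 3 metastasis lines lay above all 3 primary lines, while the CTC lines spanned both. All 13 genes had a log2 change above 0 for metastasis against primary (median 0.86), 11 with an unadjusted p under 0.05 and 0 called by the Benjamini-Hochberg adjusted quasi-likelihood test of edgeR. DESeq2 called 1 of them, mt-Nd6, which stayed at or below 1.90 CPM, beside 175 of all genes, and limma-voom called 0. Over the 3 derived groups together, DESeq2 called mt-Atp6, at 73.6 to 283 CPM, beside 137 of all genes. Set against the nuclear-encoded sum, the mitochondrially encoded sum was 1.12 times as large in the parental library, 1.60, 1.42 and 0.801 times in primary, 1.98, 2.04 and 0.756 times in CTC and 2.55, 3.18 and 1.82 times in metastasis lines. The ratio was 1.27 ± 0.420 in primary, 1.59 ± 0.723 in CTC and 2.51 ± 0.684 in metastasis lines (SD, n = 3 each), with no overlap between primary and metastasis lines. Primary 8 and CTC 6, which held the most nuclear-encoded RNA among derived lines, held the least from the mitochondrial genome.

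**Figure D5:**
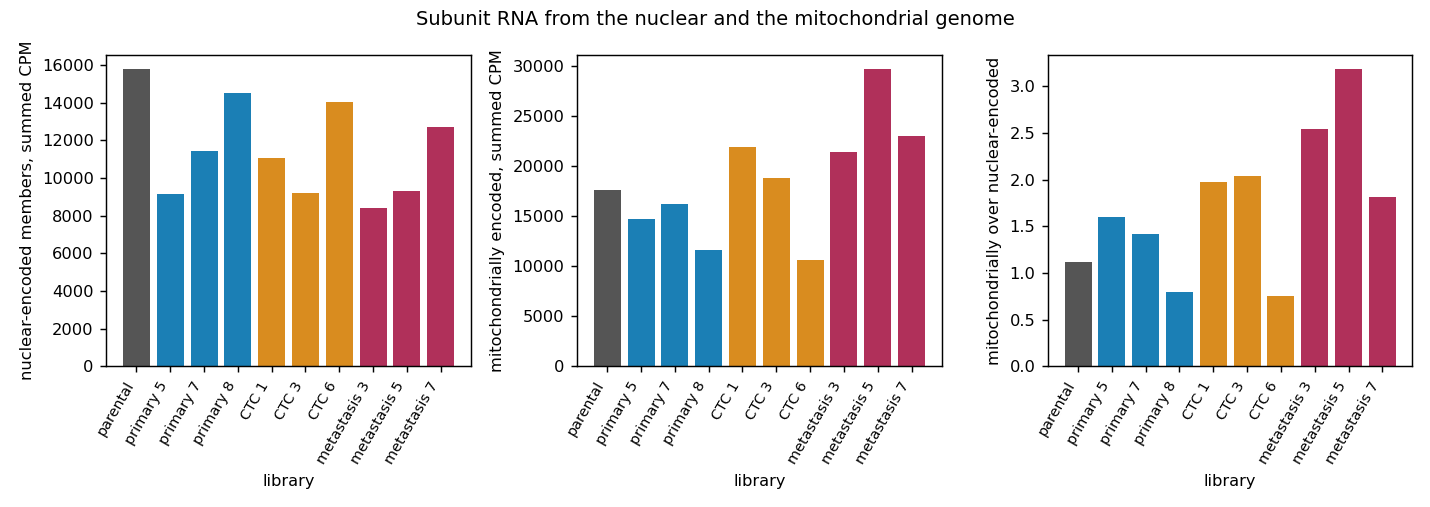
Summed CPM of the nuclear-encoded members (left), of the 13 mitochondrially encoded subunits (middle) and their ratio (right), as bars from 0 for each library (x axis), coloured by group. The ratio is 1.82 or more in all 3 metastasis lines, and primary 8 (0.801) and CTC 6 (0.756) have the lowest ratios.

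Lists of partner genes were read beside the members. Of 47 assembly factors, which build the complexes, 32 had a log2 change below 0 and 15 above for metastasis against primary (median -0.19, 2 with an unadjusted p under 0.05), and 27 against 20 for derived lines against parental (median -0.15). Among 19 tested genes of electron carriers and coenzyme Q synthesis the split was 14 below and 5 above for metastasis against primary (median -0.38), and among 16 genes of the tricarboxylic acid cycle 12 below and 4 above (median -0.34). No gene of these 3 lists was called in these comparisons by edgeR's quasi-likelihood fit after Benjamini-Hochberg adjustment or by limma-voom. DESeq2 called Pdss1, of coenzyme Q synthesis, for metastasis against primary, beside 175 of all genes. It also called the assembly factor Ndufaf3 for derived lines against parental, beside 671 of all genes. All 8 proliferation genes had a log2 change below 0 for metastasis against primary (median -1.15, 4 with an unadjusted p under 0.05, 0 called by the edgeR test, DESeq2 or limma-voom). Their sum was lowest in metastasis 5 (472 CPM) and highest in primary 7 (2655 CPM), neither of which was an extreme for the members.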

How the data were processed

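The authors deposited an estimated count per gene and per transcript (tables of estimated counts) for 10 libraries; per the submitters' processing notes the tools were HISAT2 2.1.0, StringTie 2.0.3 and, for a step not named, DESeq2 1.26.0, with the genome build GRCm38. The annotation release and strand setting are not given in the sources used here. Libraries were made from polyA RNA with a TruSeq kit and read as paired ends on an Illumina HiSeq instrument, per the labels. Entries tied to no gene name (17127 of 72544, 19.7% to 22.8% of each library's counts) were left out of library sizes and tests. Values were rounded, filtered with filterByExpr (19935 genes left, 81 members), scaled with TMM and fitted with edgeR 4.0.16 (R 4.3.3; quasi-likelihood, 4 groups, all 10 libraries, Benjamini-Hochberg over all tested genes, threshold 0.05, common biological coefficient of variation 0.606); the 1 parental library was assumed to vary like the others. DESeq2 1.42.0 and limma 3.58.1 (voom) were alternatives, as were other scalings and filters, leaving out each line, and the line number as a block. The edgeR and limma-voom code was tested on simulated counts, for metastasis against primary only. The simulated coefficient of variation was smaller than the one fitted here, so that test does not show what size of change these lines could reveal. Same-numbered lines of different groups deviated together (r = 0.12 to 0.406 over 3 pairs, median of other pairs -0.0493). Numbers were therefore treated as pairs, from the values, in the block alternatives only, and the main fit used no pairing. Some differently numbered lines deviated together as much or more (CTC 6 with metastasis 7 at 0.506, primary 8 with CTC 6 at 0.43), and the meaning of a line number is not labelled. Positions and exon lengths came from GENCODE M21, which holds all 141692 Ensembl transcripts of the deposited table. Members with the 3 smallest p in each direction of each comparison were given by values in every library, in some, or by ranges. The 6 most and 4 least variable members and the isoform pairs were given in the same ways. Members removed by the filter were given by their highest count. The 3 most and 3 least abundant of each complex, and members chosen after their values were seen, were given by values or ranges. Values of 1 member are not reported here. The members and gene lists were chosen with earlier results of these data known. Counts of this depth keep counting error small for all but the thinnest members, so the spread between lines limits precision.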

Additional observations from a re-analysis of the deposited data

How the results depend on the processing

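No alternative moved the count of members called from 0, except DESeq2, which called 1 for CTC against primary and 1 for metastasis against CTC, both Ndufa13; leaving out any 1 line gave 0 throughout. The line number as a fixed replicate block (80 members tested, 1 residual degree of freedom, not run for derived lines against parental, since the parental line shares no number) moved the members' median log2 change to 0.07 for metastasis against primary and to 0.24 for CTC against primary, and turned Ndufv3 for metastasis against CTC to -0.02. For Ndufa13, CTC against primary, that block gave 0.28, which is neither a fold nor a direction since all 3 CTC lines are at 0 counts. With numbers as a random block the count stayed 0. Leaving out 1 line gave medians of -0.40 to -0.01 for metastasis against primary, -0.21 to 0.17 for CTC against primary, -0.31 to -0.02 for metastasis against CTC and -0.51 to -0.41 for derived lines against parental. Leaving out 1 line gave -0.02 (without metastasis 5) to 0.32 (without metastasis 3) for Ndufb10 in metastasis against CTC; without metastasis 5, Ndufa13 was at 0 in both of these groups and gave no value. Total-count, median-ratio and upper-quartile scaling moved the median of all genes by at most 0.08 on the log2 scale. Leaving out Ndufa13, Uqcrb, Atp5l and Cox6c, chosen after seeing the data, left the medians at -0.21, -0.05, -0.16 and -0.45. The cause of these shifts was not tested.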
